A study of Mus musculus with 9 samples.

Results

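The genes of the mouse mitochondrial genome were followed in melanocyte lineage cells of the skin at 3 ages. They were chosen by symbol: every gene of the count tables whose symbol starts with mt- was taken. That gave 37 of the 49671 genes listed, namely 13 protein-coding genes, 2 rRNA genes and 22 tRNA genes. The 3 groups were newborn melanoblasts, which are precursors of melanocytes, from postnatal day 0.5 (3 libraries), adult quiescent melanocyte stem cells (McSC) from mice of 8 to 10 weeks (4 libraries) and aged quiescent McSC from mice of 24 months (2 libraries). All came from the dermis of female C57BL/6 mice with no allele stated, as cells gated for KIT and against CD45. The skin that gave McSC was in telogen, when hair follicles rest. Each library pooled several mice, and a p-value therefore reflects the variation among pools. Newborn and adult mice were the laboratory's own C57BL/6J stock, whereas aged mice were obtained from the NIA Aged Rodent Colony at 21 months, so colony and age cannot be told apart. Library totals were 19956424 to 21572026 counts in adult McSC, 12594770 to 16362560 in aged McSC and 23688288 to 33710117 in melanoblasts.

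The mitochondrial genome is a small circle kept in many copies per cell. It encodes core subunits of respiratory complexes I, III and IV and of ATP synthase, with the rRNAs and tRNAs needed to translate them, whereas all other subunits come from nuclear genes. Both strands are transcribed as long precursors that are cut largely at the tRNAs, so the level of a mature RNA also depends on its processing and stability. Resting stem cells of several tissues are known to rely less on respiration than their dividing progeny, and newborn melanoblasts are a dividing, migrating population.

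Counts were spread very unevenly over the 37 genes. Both rRNA genes, mt-Rnr1 (12S) and mt-Rnr2 (16S), were deeply covered, and of the 13 protein-coding genes 7 were too: mt-Nd1, mt-Nd2, mt-Nd4, mt-Nd5 and mt-Nd6 of complex I, mt-Cytb of complex III and mt-Co1 of complex IV. These 7 held 6607355 counts over the 9 libraries. The other 6, mt-Co2, mt-Co3, mt-Atp6, mt-Atp8, mt-Nd3 and mt-Nd4l, held 473 counts together, and none of them passed 34 counts in any library. Among the 22 tRNA genes, 16 had no count in any library, 5 had at most 3 counts in a library, and mt-Tp, the tRNA for proline, had 386 to 1430. The 21 other tRNA genes held 26 counts in all, with mt-Tt at 8, mt-Tn and mt-Tc at 7 each, mt-Tf at 3 and mt-Tw at 1. A count of 0 allows up to 3 counts, which is 0.0890 to 0.238 on the CPM scale (counts scaled to the same total in every library), and this limit covers counting error only.

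The sequence of mt-Tp is shown because this was the tRNA with counts to analyse; it lies at chrM:15356-15422 on the minus strand of GRCm38 (mm10), where GENCODE M21 gives it 67 bases. The letters are those of the gene, 5′ to 3′, and the capitals mark the anticodon, found by a search for a 7-base loop closed by a stem of 5 base pairs.
mt-Tp: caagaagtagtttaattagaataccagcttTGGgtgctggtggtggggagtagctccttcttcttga

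The 6 nearly uncounted mRNA genes lie beside each other, from mt-Co2 (chrM:7013-7696) to mt-Nd4l (chrM:9877-10173). Annotated transcripts were searched for copies of the mitochondrial genes with blastn. On chromosome 1, in 4663 bases from 24611535 to 24616197, GENCODE lists 7 unprocessed pseudogenes that matched the mitochondrial genes at 99% identity or more over at least 100 bases. Gm28661, Gm10925, Gm28437 and Gm10222 were identical to mt-Co2, mt-Atp6, mt-Co3 and mt-Nd4l over 98.99% to 99.9% of each gene. Gm28438 matched 99.1% of mt-Nd3 with 1 substitution, T3C, positions being counted from 1 at the 5′ end of mt-Nd3. Gm28439 was identical to bases 1 to 876 of mt-Nd4, which is 63.6% of that gene, and Gm29216 matched bases 1063 to 1545 of mt-Co1, 31.3% of it, with 1 substitution, A1066T. No annotated transcript matched mt-Nd1, mt-Nd2, mt-Nd5, mt-Nd6, mt-Cytb or either rRNA at this identity and length. The search could not find a copy of mt-Tp, which at 67 bases is shorter than the 100 bases required.

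The start of mt-Nd3 (chrM:9459-9491, plus strand) and of its copy (chr1:24613087-24613119, minus strand) is printed to show how little separates them, with the base that differs in capitals.
mt-Nd3: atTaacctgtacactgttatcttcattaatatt
Gm28438: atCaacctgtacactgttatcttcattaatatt
The stretch of mt-Co1 at the edge of its copy (chrM:6330-6449, plus strand) shows where the shared part begins, and the capitals mark the stretch aligned to Gm29216, where A1066T is the 1 base that differs.
mt-Co1: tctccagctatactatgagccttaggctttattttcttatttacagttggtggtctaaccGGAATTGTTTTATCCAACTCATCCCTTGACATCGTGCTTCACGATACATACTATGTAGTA

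mt-Atp8 was the exception among the 6, since no copy covered it over 100 bases. Its last 43 bases also belong to mt-Atp6, and the pseudogenes next to it on chromosome 1, Gm10925 and Gm28661, leave an unannotated gap of 233 bases where the mitochondrial genome has 230 bases between mt-Co2 and mt-Atp6. The nuclear sequence of that gap was not used here. mt-Atp8 (chrM:7766-7969, plus strand) is printed with the bases it shares with mt-Atp6 in capitals.
mt-Atp8: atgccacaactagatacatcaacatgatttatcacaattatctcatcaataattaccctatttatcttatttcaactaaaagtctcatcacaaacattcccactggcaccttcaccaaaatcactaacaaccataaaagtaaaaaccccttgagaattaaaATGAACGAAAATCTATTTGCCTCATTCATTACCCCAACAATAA

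The 7 pseudogenes themselves held 3888 counts over the 9 libraries. How reads that map to more than 1 place were counted is not given in the sources used here, and the part of shared reads in the low counts was not tested. The 6 genes are therefore described by their counts, and nothing is read from their levels relative to the other mRNAs. Which bases of mt-Co1 and mt-Nd4 their counts come from cannot be read from these tables.

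**Figure D1:**
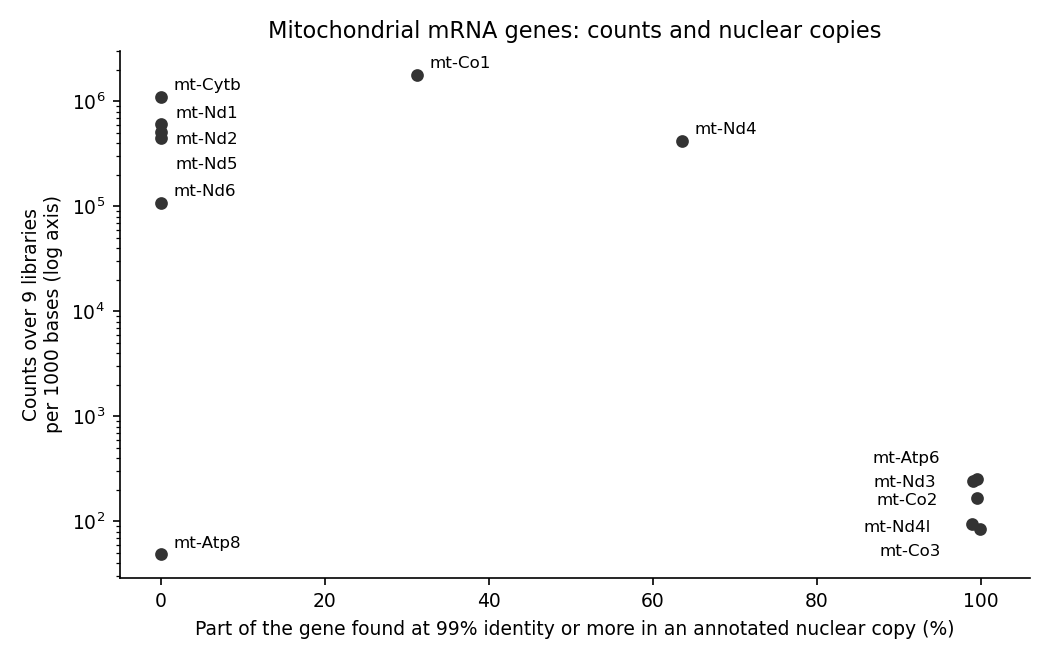
Each point is a protein-coding mitochondrial gene. The x axis gives the percent of the gene found in an annotated nuclear transcript at 99% identity or more over at least 100 bases, and the y axis (log) its counts over 9 libraries per 1000 bases. The 5 genes at 98.99% to 99.9% lie at the bottom, as does mt-Atp8 at 0%, and the 7 others, which include mt-Nd4 at 63.6%, lie far above them.

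mt-Nd6, a complex I subunit, is the 1 mRNA of the other strand, and its end overlaps the end of mt-Nd5 by 14 bases. Whether counting used strand is not given in the sources used here, so reads of mt-Nd6 (chrM:13552-14070, minus strand) and reads of the opposite strand there cannot be told apart. Its last 60 bases (chrM:13552-13611) are shown with the 14 bases that lie opposite mt-Nd5 in capitals.
mt-Nd6: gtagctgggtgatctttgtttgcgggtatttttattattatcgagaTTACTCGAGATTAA

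The mitochondrial genome took a large part of every library, and a larger part in melanoblasts than in most McSC libraries. Its genes held 36.7%, 24.2%, 34.96% and 28.8% of the counts in adult McSC, against 40.7%, 41.4% and 36.6% in melanoblasts, where adult replicate 1 lay just above melanoblast replicate 3. In aged McSC the share was 27.1% and 25.1%, within the adult range and below all 3 melanoblast libraries. The means were 31.2% ± 5.73 in adult McSC (SD, n = 4), 26.1% ± 1.40 in aged McSC (SD, n = 2) and 39.6% ± 2.56 in melanoblasts (SD, n = 3). Most of it was rRNA, at 28.3% ± 5.35 in adult McSC and 23.0% ± 2.19 in aged McSC against 35.7% ± 2.72 in melanoblasts. The mRNAs held 3.14%, 2.32%, 3.16% and 2.78% in adult McSC, all below the 3.80%, 3.78% and 4.06% of melanoblasts. In aged McSC they held 2.55% and 3.67%, again below every melanoblast library. tRNA counts, nearly all on mt-Tp, made up 0.00334% in adult McSC and 0.00393% in aged McSC against 0.00451% in melanoblasts. These shares are given without a test.

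**Figure D2:**
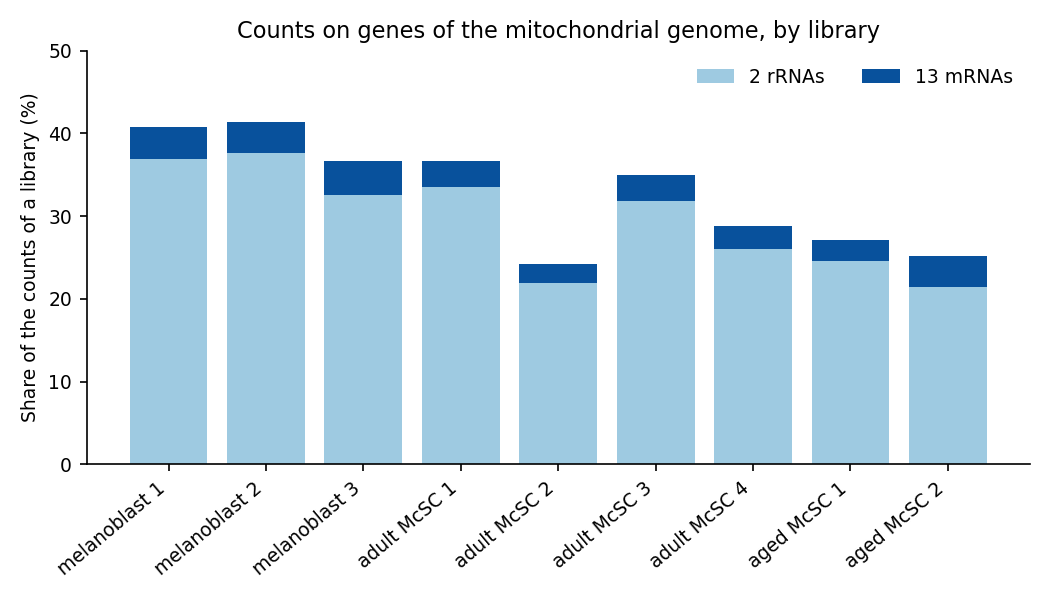
Bars show the percent of all counts of a library that fell on the 2 mitochondrial rRNA genes (light) and the 13 mRNA genes (dark), for 3 melanoblast, 4 adult McSC and 2 aged McSC libraries in order of age. rRNA makes up most of each bar, the whole bars run from 24.2% to 41.4%, and the dark parts of the McSC bars are smaller than those of the melanoblast bars.

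Adult McSC were set against melanoblasts to see how the resting stem cell differs from its newborn precursor. On the scale of the main test, CPM after TMM scaling (which scales libraries by a trimmed mean of the log ratios of genes), 14 of the 37 genes had enough counts to be tested. Of these, 11 were lower in adult McSC, 0 were higher and 3 did not pass at an adjusted p of 0.05, where 18.3% of all 31961 genes tested were lower, 15.1% were higher and 33.4% changed in either direction. The 14 genes had log2 fold changes of -2.02 to -0.85 with a median of -1.69. The median was 0.39 over all genes tested and -0.83 over the 4393 genes with a mean log2 CPM above 5. In bulk samples fewer cells of a type and less RNA per cell cannot be told apart.

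All 5 well-counted complex I mRNAs fell. mt-Nd1, a subunit of the membrane arm, had 1859, 1569, 2037 and 1956 CPM in adult McSC, against 6368, 7067 and 5127 CPM in melanoblasts. The groups did not overlap, and the change was -1.74 on the log2 scale with an SE of 0.253 (adjusted p = 1.08e-05). mt-Nd5, another membrane subunit, had 2761, 2152, 2725 and 2270 CPM in adult McSC, against 8374, 8414 and 7469 CPM in melanoblasts (log2 fold change -1.71, adjusted p = 3.91e-05). mt-Nd2 and mt-Nd4, which like mt-Nd5 help form the proton-pumping part, averaged 1614 ± 261 and 1862 ± 197 CPM in adult McSC (SD, n = 4), against 5316 ± 782 and 5974 ± 662 CPM in melanoblasts (SD, n = 3). Their log2 fold changes were -1.72 and -1.68 (adjusted p = 4.25e-05 and 9.74e-06). mt-Nd6 had 142.4, 118.2, 154.6 and 149.7 CPM in adult McSC, against 520.5, 578.2 and 460.4 CPM in melanoblasts, again without overlap (adjusted p = 0.000641, log2 fold change -1.88 with an SE of 0.366).

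mt-Cytb, the mitochondrially encoded subunit of complex III, was the most abundant mRNA after mt-Co1. It had 4477, 3921, 4801 and 4135 CPM in adult McSC, against 14204, 13209 and 10413 CPM in melanoblasts, with a log2 fold change of -1.54 (adjusted p = 2.25e-05, SE 0.238). Every adult library lay below every melanoblast library.

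mt-Co1, the catalytic core of complex IV, stood closest to no change. It had 13587, 10437, 13876 and 11413 CPM in adult McSC, against 26081, 26192 and 14282 CPM in melanoblasts, where melanoblast replicate 3 lay just above the adult range. With TMM scaling its log2 fold change was -0.85 (SE 0.257, adjusted p = 0.0136), but it was 0.045 with library totals and 0.039 with factors from abundant genes (mean log2 CPM above 5). The mt-Co1 call was also lost without melanoblast replicate 1, melanoblast replicate 2 or adult replicate 4 (adjusted p = 0.0758, 0.0831 and 0.0518), without a filter on low counts (0.0723) and with a stricter one of 5 CPM in 2 libraries (0.268).

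The rRNAs of the mitochondrial ribosome were lower as well. mt-Rnr2 had 187837, 146710, 197565 and 151022 CPM in adult McSC, against 469902, 463110 and 281304 CPM in melanoblasts (log2 fold change -1.24, SE 0.276, adjusted p = 0.00115). mt-Rnr1 averaged 73745 ± 16759 CPM in adult McSC (SD, n = 4), against 164440 ± 50743 CPM in melanoblasts (SD, n = 3), and the mt-Rnr1 difference was -1.16 on the log2 scale (SE 0.282, adjusted p = 0.00263; -0.62 and 0.0906 with the stricter filter). Melanoblast replicate 3 was the lowest of its group for both. mt-Tp had 25.8, 25.8, 36.8 and 26.9 CPM in adult McSC, against 64.2, 74.5 and 67.2 CPM in melanoblasts, and fell by 1.25 (SE 0.218, adjusted p = 9.68e-05). As with mt-Nd6, reads of mt-Tp cannot be told from those of the opposite strand, nor from those of a longer precursor.

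Of the 4 scarce mRNAs that could be tested, mt-Atp6, an ATP synthase subunit, passed at 0.484 ± 0.0721 CPM in adult McSC (SD, n = 4), against 1.74 ± 0.325 CPM in melanoblasts (SD, n = 3; adjusted p = 0.0257). That call was lost without melanoblast replicate 1, adult replicate 1, 3 or 4, or aged replicate 2 (adjusted p = 0.0690, 0.0745, 0.0577, 0.0683 and 0.05001), also without a filter (0.0537), and with library totals (log2 fold change -1.01, adjusted p = 0.202) or factors from abundant genes (-1.03, 0.188). mt-Co2, mt-Nd3 and mt-Co3 did not pass (log2 fold changes -1.79, -2.02 and -1.04, adjusted p = 0.0631, 0.0595 and 0.391), although DESeq2 and the fit without melanoblast replicate 3 called mt-Co2 (adjusted p = 0.0380 and 0.0316) and mt-Nd3 (0.0378 and 0.0350).

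How many of these falls passed depended on how libraries were scaled. TMM factors were 1.09 to 1.21 in adult McSC and 1.38 to 1.52 in aged McSC but 0.560 to 0.842 in melanoblasts, so a TMM-scaled value is larger relative to its raw share in melanoblasts. With library totals in place of these factors, an alternative chosen after seeing the data, the median of all genes moved to 1.165. Of all 31961 genes tested, 1494 were then lower and 11010 higher, and 6 mitochondrial mRNAs passed. These were mt-Nd1, mt-Nd2, mt-Nd4, mt-Nd5, mt-Nd6 and mt-Cytb, with log2 fold changes of -0.88, -0.91, -0.84, -0.87, -1.04 and -0.69 (adjusted p = 0.00324, 0.0129, 0.00283, 0.0114, 0.0301 and 0.00476). mt-Rnr1, mt-Rnr2 and mt-Tp were then at -0.26, -0.36 and -0.43 and did not pass (adjusted p = 0.295, 0.113 and 0.107). With factors from abundant genes mt-Nd6 did not pass either (-1.04, adjusted p = 0.0578), and 5 mRNAs did, where 1814 of all genes were lower and 10912 higher.

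**Figure D3:**
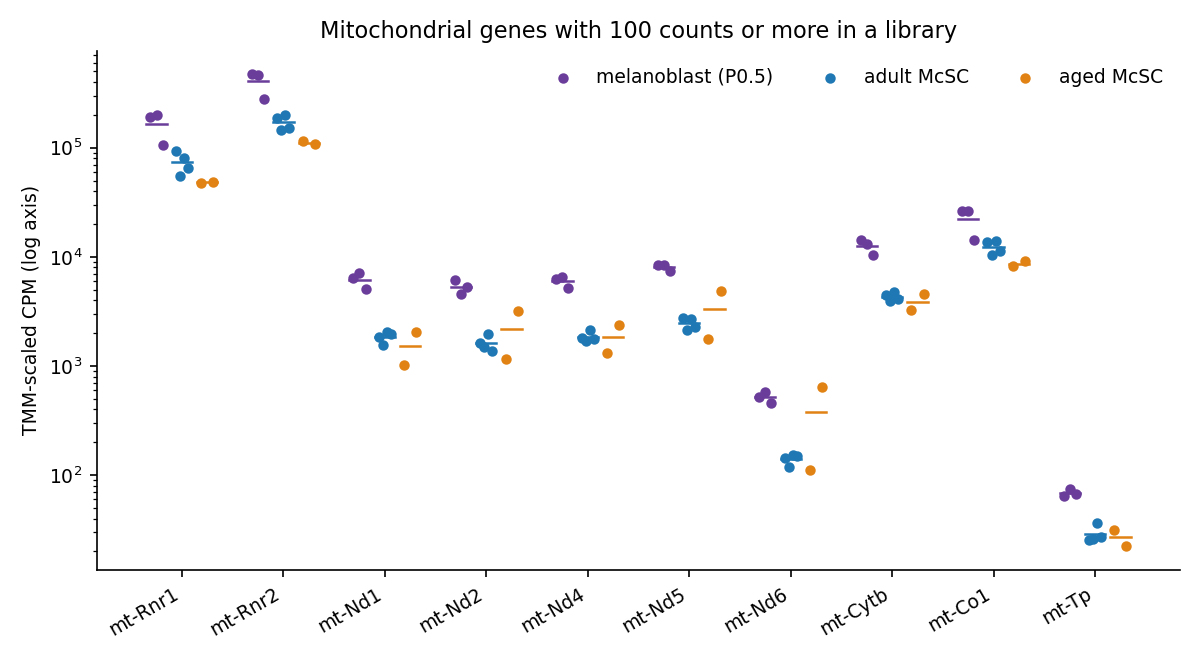
Points are TMM-scaled CPM (log axis) of the 10 mitochondrial genes with 100 counts or more in a library, each library a point and bars the group means, in order of age (3 melanoblast, 4 adult McSC and 2 aged McSC libraries). Adult points lie below melanoblast points for each gene, though for mt-Co1 only just and not with library totals (log2 fold change 0.045), and the aged points of mt-Nd6 lie at 110.7 and 644.6 CPM.

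Levels within the genome can be compared per length. Per 1000 bases and on the CPM scale, adult McSC had 107954 for mt-Rnr2 and 77220 for mt-Rnr1, against 255861 and 172188 in melanoblasts. Among mRNAs the order in adult McSC was mt-Co1 (7979), mt-Cytb (3788), mt-Nd1 (1939), mt-Nd2 (1555), mt-Nd5 (1358), mt-Nd4 (1351) and mt-Nd6 (272.1). In melanoblasts it was mt-Co1 (14359), mt-Cytb (11021), mt-Nd1 (6466), mt-Nd2 (5121), mt-Nd5 (4433), mt-Nd4 (4335) and mt-Nd6 (1001), the same order. From mt-Nd1 to mt-Nd4 the library ranges of neighbours in that order overlapped in both groups. For mt-Co1 and mt-Nd4 these values divide by the whole length, and the counts may cover only part of it.

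The make-up of the mitochondrial mRNA does not depend on how nuclear genes are scaled. mt-Co1 made up 51.7%, 48.8%, 50.1% and 49.4% of mitochondrial mRNA counts in adult McSC, against 38.4%, 39.4% and 29.6% in melanoblasts. In aged McSC it made up 49.0% and 34.0%, so aged replicate 1 lay with the adult libraries and aged replicate 2 within the melanoblast range. mt-Cytb made up 17.05% to 18.3% in adult McSC against 19.9% to 21.6% in melanoblasts, and mt-Nd5 9.83% to 10.5% against 12.3% to 15.5%. A fit with the summed mitochondrial mRNA count as library size tested the genes against that sum. It called 0 of the 14 genes in adult McSC against melanoblasts, where 56.8% of all genes changed (55.5% higher and 1.31% lower). None of the 14 had an unadjusted p under 0.05, where 20227 of all 31961 genes did. As percent of mRNA counts, mt-Nd1, mt-Co1, mt-Nd4, mt-Nd5, mt-Nd6 and mt-Cytb did not overlap between the groups, and mt-Nd2 did. These percents share a total, so a larger part for mt-Co1 leaves less for the others, and they are not separate differences. How many of all genes do not overlap between these libraries is not given. The fit estimated spread with all genes tested, mostly nuclear, so its 0 calls do not show an unchanged make-up. mt-Co1 had a log2 fold change of 0.48 there (SE 0.268, adjusted p = 0.116) and mt-Nd6 of -0.59 (SE 0.306, adjusted p = 0.0967). mt-Nd6 passed without aged replicate 1 or 2 (adjusted p = 0.0426 and 0.0417).

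Counts of the complex I mRNAs relative to those of complex IV, nearly all mt-Co1, were 0.603, 0.673, 0.652 and 0.660 in adult McSC, against 1.06, 1.03 and 1.65 in melanoblasts. In aged McSC the ratio was 0.651 and 1.44. Over all 6 McSC libraries the ratio was lower than in melanoblasts by -0.72 on the log2 scale, which did not pass an exact two-sided permutation test (p = 0.0714, adjusted over 5 ratios 0.357), where the smallest p that 6 against 3 libraries allow is 0.0238. The other 4 ratios did not pass either. mRNA was 9.34% to 10.7% of rRNA in adult McSC and 10.4% and 17.1% in aged McSC against 10.1% to 12.5% in melanoblasts (p = 0.952, adjusted 0.952). mt-Rnr2 had 2.01 to 2.64 counts for each count of mt-Rnr1 in adult McSC and 2.44 and 2.19 in aged McSC against 2.35 to 2.65 in melanoblasts (p = 0.286, adjusted 0.714). mt-Nd6 relative to the mRNAs of the heavy strand gave p = 0.690 (adjusted 0.952), and tRNA relative to mRNA p = 0.810 (adjusted 0.952), in exact permutation tests. For mt-Nd6 the pooled McSC libraries joined shifts of opposite sign. It was 0.545% to 0.653% of heavy-strand mRNA counts in adult McSC, all below the 0.773% to 0.962% of melanoblasts. In aged McSC it was 0.661% in replicate 1, also below, and 2.47% in replicate 2, above. The log2 difference from melanoblasts was -0.59 in adult McSC and 0.56 in aged McSC, and these were not tested apart.

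**Figure D4:**
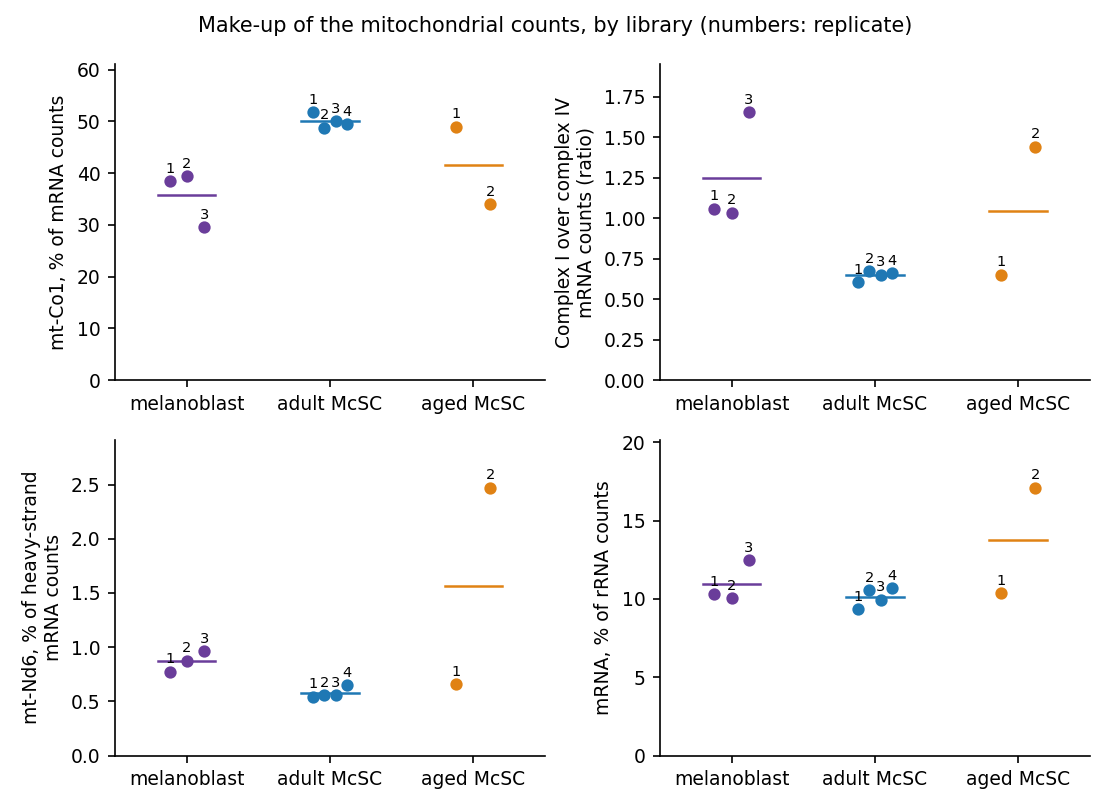
Panels show, for each library (number: replicate; bar: group mean; groups in order of age), mt-Co1 as percent of mitochondrial mRNA counts, the ratio of complex I to complex IV mRNA counts, mt-Nd6 as percent of heavy-strand mRNA counts, and mRNA as percent of rRNA counts. The 4 adult libraries lie close together in each panel, and aged replicate 2 lies apart from aged replicate 1, at 2.47% against 0.661% for mt-Nd6.

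In aged McSC against melanoblasts, which share the melanoblast libraries with the comparison above, 9 of the 14 genes were lower and 0 higher, where 20.3% of all genes were lower, 20.4% were higher and 40.7% changed in either direction. The complex I mRNAs mt-Nd1, mt-Nd2, mt-Nd4 and mt-Nd5 fell, with log2 fold changes of -2.01, -1.29, -1.69 and -1.29 (adjusted p = 4.77e-05, 0.00573, 0.000167 and 0.00499). The calls of mt-Nd2 and mt-Nd5 were lost without aged replicate 1 (log2 fold changes -0.67 and -0.68, adjusted p = 0.167 and 0.153) and, like that of mt-Co1, with the stricter filter (-0.62, -0.62 and -0.64 for mt-Nd2, mt-Nd5 and mt-Co1). mt-Cytb was at 3238 and 4522 CPM in aged McSC, against 14204, 13209 and 10413 CPM in melanoblasts (log2 fold change -1.70, adjusted p = 0.000129). mt-Co1 was at 8257 and 9103 CPM in aged McSC, against 26081, 26192 and 14282 CPM in melanoblasts (log2 fold change -1.35, adjusted p = 0.00221; -0.15 with library totals, adjusted p = 0.545). mt-Rnr1, mt-Rnr2 and mt-Tp fell, with log2 fold changes of -1.77, -1.86 and -1.35 (adjusted p = 0.000509, 0.000269 and 0.000512). With library totals 4 genes passed, namely mt-Rnr2, mt-Nd1, mt-Nd4 and mt-Cytb (log2 fold changes -0.66, -0.86, -0.55 and -0.54), and with factors from abundant genes 3 did. Of all 31961 genes tested, 1422 were lower and 15615 higher with library totals, and 1638 and 15798 with factors from abundant genes.

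mt-Nd6 differed widely between the aged libraries. It had 110.7 and 644.6 CPM in aged McSC, against 520.5, 578.2 and 460.4 CPM in melanoblasts, so aged replicate 1 lay below and aged replicate 2 above all melanoblast libraries. The log2 fold change was -0.46 (SE 0.441, adjusted p = 0.402), and without aged replicate 2 it was -2.11 (adjusted p = 0.000260), near mt-Nd2, mt-Nd4 and mt-Nd5 in that fit (-2.08, -2.05 and -2.07). Relative to the mitochondrial mRNA total, mt-Nd6 was called higher in aged McSC than in melanoblasts (log2 fold change 0.83, SE 0.364, adjusted p = 0.0469), 1 of the 14 genes where 62.3% of all genes changed (61.1% higher and 1.16% lower). Without aged replicate 2 this turned to -0.40 (adjusted p = 0.358), and it did not pass without melanoblast replicate 1 or 2 or adult replicate 3 or 4 (adjusted p = 0.128, 0.0692, 0.0523 and 0.0598).

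Aged McSC were set against adult McSC, the resting stem cell sorted at a younger age, and colony differed along with age. None of the 14 genes passed with edgeR, and none of the 10 to which DESeq2 gave an adjusted p did, where 0.303% of all genes did with edgeR (0.0532% higher and 0.25% lower). Of all 31961 genes tested 3275 had an unadjusted p under 0.05 with edgeR, and 2 of the 14 did. These were mt-Nd6, at 110.7 and 644.6 CPM in aged McSC, against 142.4, 118.2, 154.6 and 149.7 CPM in adult McSC (log2 fold change 1.42, SE 0.399, adjusted p = 0.230), and the scarce mt-Co2 (1.81, SE 0.808, adjusted p = 0.464). mt-Nd6 lay outside the adult range in both aged libraries, below it in replicate 1 and above it in replicate 2, and was called without aged replicate 1 (2.16, adjusted p = 8.52e-05) and without a filter on low counts (1.34, adjusted p = 0.000299). mt-Rnr1 and mt-Rnr2 were at 48116 ± 1265 and 111420 ± 5554 CPM in aged McSC (SD, n = 2), against 73745 ± 16759 and 170784 ± 25678 CPM in adult McSC (SD, n = 4). Both stood at -0.62 on the log2 scale and did not pass (SE 0.330 and 0.323, adjusted p = 0.528 and 0.518), although the groups did not overlap. mt-Co1 did not overlap either (-0.51, SE 0.300, adjusted p = 0.568). The log2 fold changes of mt-Nd1, mt-Nd2, mt-Nd4, mt-Nd5, mt-Cytb and mt-Tp lay between -0.27 and 0.43, and for each the aged libraries overlapped or enclosed the adult ones. Relative to the mitochondrial mRNA total 2 of the 14 genes, and 2431 of all 31961, had an unadjusted p under 0.05. After adjustment 0 of the 14 passed, where 0.147% of all genes did (0.0407% higher and 0.106% lower). That count over all genes, 13 higher and 34 lower, was 314 and 73 without melanoblast replicate 3, 152 and 55 without melanoblast replicate 2, 34 and 44 without aged replicate 1, and 11 and 3 without aged replicate 2. mt-Nd6 was nearest (1.41, SE 0.337, adjusted p = 0.0876). It passed without aged replicate 1, melanoblast replicate 2 or melanoblast replicate 3 (adjusted p = 0.00126, 0.0133 and 0.00648), and without aged replicate 2 it was at 0.19 (adjusted p = 0.928).

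**Figure D5:**
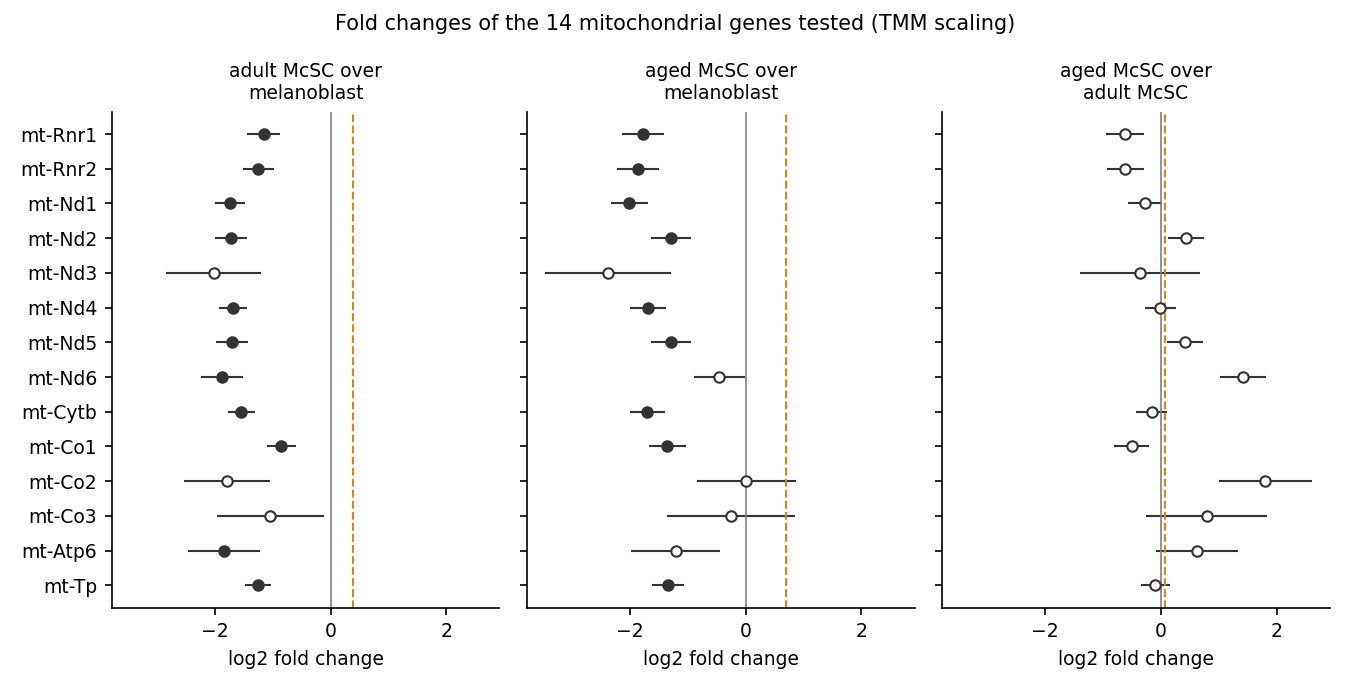
Points are log2 fold changes with SE for the 14 mitochondrial genes tested, filled where the adjusted p was under 0.05, in 3 comparisons of TMM-scaled counts (4 adult McSC, 2 aged McSC and 3 melanoblast libraries). The dashed line is the median of all genes tested. Filled points number 11, 9 and 0 from left to right, and that of mt-Co1 in the left panel moved to 0.045 with library totals.

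Aged replicate 2 stood apart from aged replicate 1 in more than mt-Nd6. It had 3207 and 4838 CPM of mt-Nd2 and mt-Nd5, against 1154 and 1761 CPM in aged replicate 1, and an mRNA count of 17.1% of rRNA, against 10.4%. The 7 pseudogenes on chromosome 1 were at 71.1 CPM of the library total in aged replicate 2, and at 8.71 to 23.4 in the 8 other libraries. The 6 scarce mRNAs were at 5.48 CPM there, and at 1.34 to 3.38 elsewhere. Their part in the values of aged replicate 2 was not tested.

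Nuclear genes that serve the mitochondrial genome were read from lists covering transcription, replication, RNA processing, rRNA and tRNA modification, tRNA charging, translation and biogenesis. Their counts stand beside the 18.3% of all genes that were lower and the 15.1% that were higher in adult McSC. Those of transcription, rRNA modification, tRNA modification and biogenesis lay near these shares. With library totals 1494 of the 31961 genes tested were lower and 11010 higher. The list counts with library totals stand beside these. Of 11 transcription genes 3 fell in adult McSC relative to melanoblasts, Tfam, the packaging and activating factor, at 16.7 ± 5.35 CPM against 31.1 ± 4.27 CPM (log2 fold change -0.90, adjusted p = 0.00700), Tfb1m, an rRNA methyltransferase, and Mrpl12, a ribosomal protein that binds the polymerase. With library totals none of the 11 passed, and without melanoblast replicate 1 or 2, adult replicate 1 or 4, or either aged library 1 passed, against 5 without melanoblast replicate 3. Of 15 replication and maintenance genes 7 fell, among them Polg, the DNA polymerase of mitochondria (26.9 ± 4.54 against 54.3 ± 3.08 CPM, log2 fold change -1.01, adjusted p = 0.000673), and Lig3, a DNA ligase (-1.15). With library totals 3 of them rose and 1 fell, and 3 or 4 passed without melanoblast replicate 1, adult replicate 1, 3 or 4, or either aged library.

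Of 19 RNA processing and stability genes 15 fell in adult McSC with TMM scaling, Grsf1, an RNA granule protein known to bind light-strand transcripts in human cells, at 34.7 ± 6.51 CPM against 126.5 ± 24.5 CPM (log2 fold change -1.86, adjusted p = 8.36e-07) and Lrpprc, which stabilises mitochondrial mRNAs, at 45.2 ± 9.83 CPM against 113.3 ± 15.4 CPM (-1.32, adjusted p = 4.98e-05). Fastkd3, an RNA-binding protein of the same compartment, fell by 1.11 on the log2 scale. With library totals 2 fell and 1 rose, and 9, 7 and 8 of the 19 passed without melanoblast replicate 1, melanoblast replicate 2 and adult replicate 1. Of 18 rRNA modification and ribosome assembly genes 5 fell and 2 rose, and Nsun4, an rRNA methyltransferase of the mitochondrial ribosome, was higher in adult McSC (32.8 ± 4.71 against 17.1 ± 3.18 CPM, log2 fold change 0.94, adjusted p = 0.00300). With library totals 2 rose and 0 fell, and 4 of the 18 passed without melanoblast replicate 1.

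Of 16 tRNA modification genes 4 fell, among them Trnt1, which adds the CCA end (-1.15), and with library totals 3 rose and 0 fell. Of 20 aminoacyl-tRNA synthetase genes 8 fell, Iars2 by 1.61 on the log2 scale, whereas with library totals 3 fell and 1 rose, and 5 passed without melanoblast replicate 1, melanoblast replicate 2 or adult replicate 3. Lars2, the leucine enzyme, stood far above the others of this list at 2265 ± 1307 CPM in adult McSC (SD, n = 4), against 8459 ± 3582 CPM in melanoblasts (SD, n = 3; log2 fold change -1.90, adjusted p = 0.00149). Of 14 translation factors 6 fell, with Gfm1, an elongation factor, at -1.52, and with library totals 2 fell. Of 12 biogenesis regulators 2 fell, Gabpa and Gabpb1 of the nuclear respiratory factor GABP (-1.14 and -1.08), and Ppargc1a, the coactivator PGC-1alpha, rose (47.98 ± 6.62 against 32.1 ± 2.49 CPM, log2 fold change 0.58, adjusted p = 0.0445). With library totals 6 of the 12 rose and 0 fell, and 5 passed without melanoblast replicate 3.

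Nuclear subunits of the same complexes mostly fell with the mitochondrial ones. In adult McSC relative to melanoblasts 27 of 36 complex I genes, 4 of 4 complex II genes, 8 of 9 complex III genes, 12 of 12 complex IV genes and 16 of 16 ATP synthase genes fell and 0 rose, with median log2 fold changes of -1.10, -1.50, -1.09, -1.48 and -1.38. With library totals 6, 3, 2, 7 and 5 of them fell, and 1 complex I gene rose, where 1494 of the 31961 genes tested fell and 11010 rose. Examples were Ndufb5, an accessory subunit of complex I (15.1 ± 2.31 against 41.8 ± 9.38 CPM, -1.47), Sdhc of complex II (-1.52), Uqcrfs1, the Rieske protein of complex III (-1.71), Ndufa4, now counted with complex IV (-1.77), and Atp5b, the catalytic beta subunit of ATP synthase (809.5 ± 122 against 2457 ± 722 CPM, -1.60). Complex II, which has no mitochondrially encoded subunit, was among the lists in which every gene fell. The 4393 genes with a mean log2 CPM above 5 had a median of -0.83 in this comparison, against 0.39 for all genes. Over all 13 lists, which hold 202 entries, 117 fell, 3 rose and 82 did not pass in adult McSC against melanoblasts with TMM scaling. Of all genes 18.3% fell and 15.1% rose there. In aged McSC against melanoblasts 132 fell and 3 rose, where 20.3% of all genes fell and 20.4% rose. With library totals 1422 of all 31961 genes fell and 15615 rose in that comparison, and no list count is given for it. In aged against adult McSC 0 of the 202 passed, where 0.303% of all genes did.

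Markers of the sorted lineage and of other skin cells moved with the groups. Their counts are with TMM scaling, where 18.3% of all genes were lower and 15.1% higher in adult McSC than in melanoblasts. With library totals 1494 of all 31961 genes were lower and 11010 higher, and marker counts with that scaling are not given. The 12 melanocyte lineage markers, led by Dct, a melanin enzyme, summed to 4529 to 11096 CPM in adult McSC and 7585 to 9065 CPM in aged McSC against 14939 to 27029 CPM in melanoblasts, and 10 of the 12 fell in adult McSC. Kit, the receptor used for sorting, was at 599.4 to 1610 CPM in adult McSC and 732.4 to 848.2 CPM in aged McSC against 2248 to 3081 CPM in melanoblasts. The 15 keratinocyte markers, led by Cdh1, summed to 1571 to 2747 CPM in adult McSC and 1267 to 1435 CPM in aged McSC against 1570 to 2380 CPM in melanoblasts. Although these sums overlapped, 14 rose and 1 fell in adult McSC, with a median log2 fold change of 2.60 over the list. Krt5 was at 227.2 to 576.1 CPM in adult McSC and 107.8 to 175.1 CPM in aged McSC against 22.3 to 52.3 CPM in melanoblasts. The 10 Schwann cell markers summed to 1050 to 1489 CPM in adult McSC and 464.1 to 534.8 CPM in aged McSC against 635.6 to 888.5 CPM in melanoblasts, with 4 risen and 1 fallen in adult McSC. The 10 fibroblast markers summed to 498.1 to 956.2 and 132.9 to 247.4 CPM against 600.6 to 2186 CPM. In aged against adult McSC 6 of the 10 Schwann cell and 3 of the 10 fibroblast markers were lower, where 0.25% of all genes were. No marker of the other lists passed in that comparison. The 4 CD45 list markers summed to 7.57 to 11.5 CPM in adult McSC and 13.6 to 14.6 CPM in aged McSC against 2.45 to 7.59 CPM in melanoblasts, and no marker of any list was at 0 in all libraries. Macrophage and endothelial markers summed to 41.3 to 60.0 and 89.2 to 307.8 CPM in adult McSC and 60.4 to 79.97 and 70.3 to 79.0 CPM in aged McSC against 28.3 to 43.6 and 59.5 to 103.99 CPM in melanoblasts, and mast cell, muscle, erythroid and adipocyte markers summed to at most 36.5 CPM in every library. Counts on 1913 olfactory and vomeronasal receptor genes, best known from sensory neurons of the nose, were at 792 to 1520 CPM of the library total in adult McSC and 1640 and 1750 in aged McSC against 175 to 392 in melanoblasts. The part of these differences in the mitochondrial values was not tested.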

How the data were processed

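The authors deposited a table of unnormalized read counts for each library, by Ensembl gene. Per the labels' protocols, an input of 20 ng RNA (integrity number above 8.5) was amplified with Ovation RNA-Seq V2, 1000 ng of the cDNA was made into TruSeq libraries in 10 PCR cycles, and paired reads had 126 bases. Such amplification may shift transcript proportions, and no molecular tags are described. STAR 2.5.2 and the mm10 build are named in the submitters' processing notes, beside Trimmomatic 0.36, SAMtools 1.9, FastQC 0.11.8 and DESeq2 1.22.2. Which counter and annotation were used, and how strand and multi-mapped reads were handled, is not given in the sources used here.

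Groups came from sample titles. Symbols and coordinates came from GENCODE M21 (GRCm38), which matched 49326 identifiers and left 345 unmatched. Replicates were no duplicates, since chi-square over its degrees of freedom was 15.2 to 63.3 for pairs in a group. edgeR 4.0.16 (R 4.3.3) with TMM, filterByExpr and the robust quasi-likelihood F test was fitted to all 9 libraries by group, with Benjamini-Hochberg adjustment over 31961 genes at 0.05, and was tested on simulated data. SE were derived from the F statistic. The second fit used the mitochondrial mRNA count as library size. Ratios were compared by exact permutation over libraries, and copies were found with blastn 2.17.0 at 90% identity or more. Alternatives included DESeq2 1.42.0, other scalings and filters, a replicate block and leaving out each library. The genes and lists were chosen with earlier results of these data known. All protein-coding and rRNA genes were named; tRNAs were named by counts, list genes by smallest p (at most 4 a list), and the nuclear copies were named after their values were seen.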

Additional observations from a re-analysis of the deposited data

Results flagged for a closer look

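In 23 checks of the 4 adult libraries, 2 values lay far from the other 3 of the group, where chance gives about 1 in 20. mt-Tp in adult replicate 3 was at 36.8 TMM-scaled CPM, against 25.8 to 26.9 in the other adult libraries, a gap of 0.893 of the range of the group. mt-Nd6 over the heavy-strand mRNAs in adult replicate 4 was a count ratio of 0.00653, against 0.00545 to 0.00561 in the other adult libraries, a gap of 0.858 of the range. Groups of 2 and 3 libraries were not checked in this way.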

How the results depend on the processing

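With factors from abundant genes 5 mitochondrial genes passed in adult McSC against melanoblasts and 3 in aged McSC against melanoblasts, and with library totals 6 and 4; the alternatives with library totals were chosen after seeing the data. Without a filter 1 gene passed in aged against adult McSC. With a library left out these counts ran from 9 to 13, from 7 to 10 and, in aged against adult McSC, from 0 to 1. Relative to the mitochondrial mRNA the counts ran from 0 to 1 in adult McSC against melanoblasts, from 0 to 1 in aged against adult McSC and from 0 to 2 in aged McSC against melanoblasts, where 2 was reached without adult replicate 2. In that fit 19908 of all genes passed in aged McSC against melanoblasts, and 11248 without aged replicate 1.

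The replicate numbers were not taken to pair the libraries. Deviations of same-numbered libraries correlated at -0.0798 to 0.202, and those of differently numbered libraries were not compared, so pairing was not tested. With a replicate block 10, 0 and 9 genes passed in the 3 comparisons (adult against melanoblast, where mt-Atp6 was lost at an adjusted p of 0.0929, aged against adult, aged against melanoblast), and relative to the mitochondrial mRNA 0 in aged McSC against melanoblasts. Among all genes in aged against adult McSC, 172 passed with the block, 339 with DESeq2, 343 without a filter, 311 with these groups alone, 57 with factors from abundant genes and 61 with library totals, against 97. With a library left out this ran from 13 (without aged replicate 2) to 303 (without melanoblast replicate 3), and was 46 and 49 without adult replicate 1 and 3. With the stricter filter 6877 and 7611 genes passed against melanoblasts in adult and aged McSC, and in aged McSC 7410 and 8440 without aged replicate 1 and 2. The split of all genes in adult McSC against melanoblasts was 4836 higher and 5840 lower, and 11010 and 1494 with library totals; in aged McSC against melanoblasts it was 6514 and 6491, and 15615 and 1422; in aged against adult McSC it was 17 and 80, and 29 and 32.

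Some log2 fold changes changed sign, and the cause was not tested. mt-Co1 in adult McSC against melanoblasts was 0.039 with factors from abundant genes and 0.045 with library totals. In aged against adult McSC these gave 0.056 and 0.020 for mt-Nd1, 0.33 and 0.29 for mt-Nd4, 0.17 and 0.15 for mt-Cytb, and 0.26 and 0.24 for mt-Tp. The stricter filter gave 0.18, 0.032 and 0.11 for mt-Nd4, mt-Cytb and mt-Tp. In aged McSC against melanoblasts these scalings gave 0.98 and 0.96 for mt-Co3 and 0.70 and 0.65 for mt-Nd6 (0.21 with the stricter filter), and mt-Co2 was -0.089 with RLE factors, -0.090 with DESeq2 and -0.30 with the replicate block. With a library left out, aged against adult McSC ran from -0.82 to 0.11 for mt-Nd1, -0.45 to 0.96 for mt-Nd2, -0.37 to 1.216 for mt-Atp6, -0.94 to 1.57 for mt-Co3, -2.36 to 0.51 for mt-Nd3, -0.46 to 0.32 for mt-Nd4, -0.46 to 0.93 for mt-Nd5, -0.32 to 2.16 for mt-Nd6, -0.38 to 0.027 for mt-Cytb and -0.40 to 0.17 for mt-Tp. In aged McSC against melanoblasts the ranges were -1.24 to 0.78 for mt-Co2, -1.90 to 0.62 for mt-Co3 and -2.11 to 0.37 for mt-Nd6, and relative to the mitochondrial mRNA -0.073 to 0.45 for mt-Co1 and -0.40 to 1.48 for mt-Nd6.

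The log2 ratio of mRNA to rRNA between McSC and melanoblasts was 0.03, -0.20 without genes that overlap another, and -0.10 to 0.12 with a library left out; that of tRNA to mRNA was 0.065, and -0.067 to 0.21. That alternative gave no value for the ratios of mt-Nd6 and of complex I to complex IV. Relative to the counts outside mitochondrial rRNA, the mRNA share was 4.02% in adult McSC and 4.03% in aged McSC against 6.04% in melanoblasts, and the tRNA share 0.00470% in adult McSC against 0.006985% in melanoblasts. The counts of mt-Atp8, mt-Nd4l and 21 of the tRNAs were too low to test, and those of the other 4 scarce mRNAs gave SEs of 0.623 to 0.927 in adult McSC against melanoblasts. With an aged library left out, the other was assumed to vary like the other groups.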

Other observations

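Outside the copies on chromosome 1, 9 annotated pseudogenes matched mitochondrial genes at 90% to 99% identity. Gm13340 on chromosome 2 matched the whole of mt-Co1 at 97.6%, and Gm11408, Gm11410 and Gm11407 on chromosome 4 matched mt-Nd6, mt-Cytb and part of mt-Nd5 at 93.6%, 92.9% and 92.4%. These 9 together were at 64.2 CPM of the library total in aged replicate 2, and at 14.4 to 24.8 in the 8 other libraries. Gm13340 alone held 2436 of their 4992 counts. Their values are given without a test, and the pseudogenes were chosen after their values were seen.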
